A study of Mus musculus with 2 samples.

Results

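Chemokine receptors are cell surface receptors that sense a gradient of small secreted proteins, the chemokines, and couple mostly to inhibitory G proteins to steer a cell towards the source. In the thymus they decide where a developing T cell sits and when it leaves, and they prepare cells for the tissue they will enter. The receptors described here are 10 that T lineage cells are known to use: Ccr2, Ccr4, Ccr6, Ccr7, Ccr9, Ccr10, Cxcr3, Cxcr4, Cxcr5 and Cxcr6. They were chosen by name, as the rows of the array whose platform symbol is one of these genes, and they make up 10 of the 30142 genes that had a row with their symbol alone. Each had 1 row, and no row named one of them together with another gene.

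Signals came from Vγ6 γδ T cells, T cells with a receptor built from a Vγ6 and a δ chain, which form in the thymus around birth and settle in dermis, lung and other barrier tissues. They were sorted by flow cytometry from thymi of C57BL/6 mice aged 0 days, either WT or MHC class II KO. MHC class II molecules show peptides to CD4 T cells, and the second genotype lacks them. Which of the class II genes was disrupted, whether animals were pooled and their sex are not stated in the labels. With 1 array per genotype, 2 in all, no difference given here has a replicate, an error or a test, and each describes these 2 arrays. The study asked how gene expression of these cells differs when MHC class II is missing.

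Values are log2 signals, and a difference is the log2 signal for MHC class II KO (its array is called the knockout array) minus the WT value, so that a difference of 1 is 2-fold. A gene was taken as above background where its signal passed that of 95% of 1228 olfactory receptor rows, a limit of 5.94 for WT and 5.86 for the knockout. Of the Vγ6 cell markers, all 15 with a row of their own were above background on both arrays, among them Tcrg-V6, the Vγ6 gene segment, at 12.64 and 12.33, and Trdv4, the δ segment that pairs with it, at 12.68 and 12.90. H2-Ab1, a chain gene of MHC class II, had values of 7.68 and 6.67, above background on both arrays. These values do not check the labels, as the disrupted gene is unknown and which cells gave this signal was not tested. Signals of different receptors come from different probes and were not ranked against each other. Arrays of sorted cells measure a mean over the sample, where fewer cells of a type and less RNA per cell cannot be told apart.

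All 10 receptors were above background on both arrays, against 13710 of the 30142 genes with a row of their own. On the knockout array, 3 of the receptors, Ccr10, Ccr6 and Ccr4, were at least 2-fold higher, against 0.793% of the 14494 genes above background on at least 1 array. A further 2, Cxcr4 and Ccr9, were at least 2-fold lower, against 1.15% of the same genes. The other 5, Cxcr6, Cxcr3, Ccr7, Ccr2 and Cxcr5, lay within 1.5-fold. The median difference of the 10 was 0.12 and that of all genes 0.04, but the receptors parted in both directions, with a median absolute difference of 0.90 against 0.17. Counting both directions, 5 of the 10 receptors were at least 2-fold apart, against 1.95% of all genes and 1.82% of those whose mean signal lay inside the range of the 10. The list was drawn up by gene name with results of these arrays known, so these counts are descriptions.

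**Figure D1:**
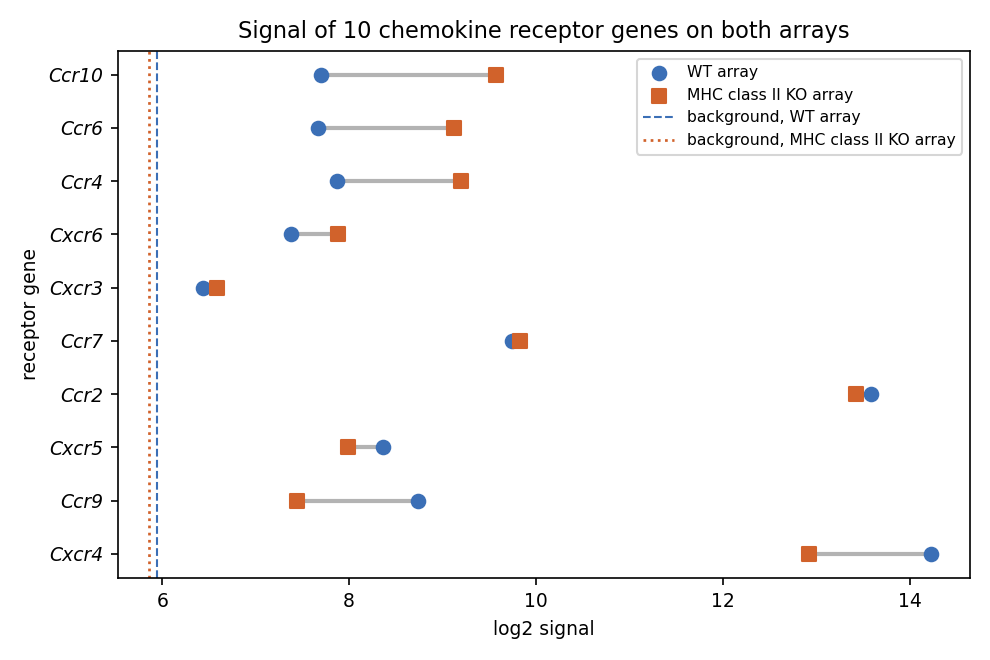
Log2 signal of the 10 chemokine receptor genes on the WT array (circles) and the MHC class II KO array (squares), 1 array per group, ordered by their difference; vertical lines mark the background of each array. Ccr10, Ccr6 and Ccr4 lie to the right on the MHC class II KO array, Cxcr4 and Ccr9 to the left, and all 20 signals are above background.

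Promoters of the receptors at least 2-fold apart are printed so that the stretch before each start can be read beside its values. Each is the 250 bases before a RefSeq transcription start in GRCm38.p6, 5′ to 3′ on the strand of the gene, and the array rows name no build of their own. Capitals mark matches, on either strand, to 1 of 6 short motifs: AGGTCA (the half-site that ROR and other nuclear receptors read), TGACTCA (AP-1), TTCNNNGAA (STAT factors), CAGGTG (an E-box of E proteins), AGATAA (read by GATA factors) and TATAAA (the TATA box). Those before Ccr4 (chr9:114496545-114496794, minus strand), Ccr6 at its first and second listed start (chr17:8235793-8236042 and chr17:8242276-8242525, plus strand), Ccr9 (chr9:123766961-123767210, plus strand) and Cxcr4 (chr1:128592300-128592549, minus strand) read as follows.
Ccr4: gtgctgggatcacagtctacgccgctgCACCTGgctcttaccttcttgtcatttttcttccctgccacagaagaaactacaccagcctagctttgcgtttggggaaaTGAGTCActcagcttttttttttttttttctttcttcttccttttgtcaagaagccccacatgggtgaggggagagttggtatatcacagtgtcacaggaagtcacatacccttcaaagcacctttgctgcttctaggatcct
Ccr6 first start: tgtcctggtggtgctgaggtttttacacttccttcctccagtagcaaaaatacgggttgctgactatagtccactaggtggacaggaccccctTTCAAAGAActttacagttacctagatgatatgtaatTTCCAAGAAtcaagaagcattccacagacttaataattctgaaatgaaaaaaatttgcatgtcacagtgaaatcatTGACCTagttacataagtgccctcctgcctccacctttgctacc
Ccr6 second start: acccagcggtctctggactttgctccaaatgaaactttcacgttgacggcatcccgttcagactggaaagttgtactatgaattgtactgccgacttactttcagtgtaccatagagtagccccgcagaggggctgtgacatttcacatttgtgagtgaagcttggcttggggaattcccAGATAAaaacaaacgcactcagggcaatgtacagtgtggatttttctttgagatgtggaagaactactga
Ccr9: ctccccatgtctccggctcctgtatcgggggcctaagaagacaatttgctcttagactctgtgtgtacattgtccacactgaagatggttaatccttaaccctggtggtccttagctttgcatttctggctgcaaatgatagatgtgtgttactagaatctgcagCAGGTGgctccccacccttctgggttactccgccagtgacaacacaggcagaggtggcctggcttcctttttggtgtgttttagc
Cxcr4: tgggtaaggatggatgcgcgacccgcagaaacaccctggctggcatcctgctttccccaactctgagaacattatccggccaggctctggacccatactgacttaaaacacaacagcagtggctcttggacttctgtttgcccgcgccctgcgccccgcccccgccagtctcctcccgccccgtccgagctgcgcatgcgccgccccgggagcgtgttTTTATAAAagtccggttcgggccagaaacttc
Promoters of Ccr7, Ccr10 and Cxcr5 were not used here.

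The first Ccr6 start had an AGGTCA match read on the opposite strand (TGACCT), from 44 to 39 bases before the start, and 2 TTCNNNGAA matches, TTCAAAGAA and TTCCAAGAA. AGGTCA was found in 14.0% and TTCNNNGAA in 7.02% of the 32851 RefSeq promoters searched over the same 250 bases. The Ccr4 promoter had TGACTCA on the opposite strand, a match found in 4.46% of promoters, and CAGGTG on the opposite strand, found in 17.2%. The Ccr9 promoter had CAGGTG, and the second Ccr6 start AGATAA, which 9.99% of promoters hold. In the Cxcr4 promoter TATAAA began 30 bases before the start and overlapped a match on the opposite strand (12.4% of promoters hold one), in a stretch with 61.2% G and C against 41.2% before the first Ccr6 start. Matches to the same motif were not shared between the higher receptors Ccr4 and Ccr6, while Ccr4 and the lower Ccr9 both had the E-box. Receptors within 1.5-fold had such matches too: Cxcr3 had the E-box and Ccr2 had AGATAA. A match describes letters and shows no binding.

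Ccr10 encodes the receptor for CCL27 and CCL28, chemokines of skin and mucosal epithelium, and is known for bringing fetal γδ T cells to the skin. Its row, transcript cluster TC1100003796.mm.1, gave 207.4 for WT and 759.3 for the knockout, log2 values of 7.70 and 9.57. The difference of 1.87, or 3.66-fold, was the 9th highest of the 14494 genes above background. It was also the only one of the 10 past 3-fold. For scale, the middle 95% of the 2147 other genes within 0.5 of its mean log2 signal had differences from -0.46 to 0.79.

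Cntnap1, which encodes a contactin-associated protein of nerve fibres, is the next gene to Ccr10 on chromosome 11, and the models of both overlap in RefSeq. It was higher on the knockout array too, going from a log2 signal of 6.01, just above background, to 7.28, a difference of 1.27. On its far side Ezh1, a histone methyltransferase gene, differed by 0.40. On the other side of Ccr10, Plekhh3 was not above background on either array and Tubg2, a γ-tubulin gene, differed by -0.08. How far the probes of either row read the other transcript was not tested. Of 12 different genes nearest to the 10 receptors among measured protein-coding genes that were above background and are no receptors themselves, Cntnap1 was the only one at least 2-fold apart, and the other 11 had differences down to -0.36 and up to 0.32.

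Ccr6 encodes the receptor for CCL20 and is a marker of T cells that make interleukin 17. Its row, TC1700000084.mm.1, gave 202.6 for WT and 555.8 for the knockout, log2 values of 7.66 and 9.12. The difference was 1.46, a 2.74-fold higher signal and the 24th highest of all genes above background. Among the 2215 other genes of like signal the middle 95% lay between -0.49 and 0.78. The cytokine genes that Ccr6 usually accompanies went the opposite way on the same arrays, Il17a by -1.57 and Il17f by -2.88. They were the only ones of the 15 measured Vγ6 cell markers at least 1.5-fold apart. Of the 15, 9 had a difference above 0 and 6 below, with a median of 0.03.

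Ccr4 encodes the receptor for CCL17 and CCL22, which medullary thymic cells make to attract thymocytes that have passed positive selection. Its row, TC0900003169.mm.1, gave 234.6 for WT and 589.2 for the knockout, log2 values of 7.87 and 9.20. This was a difference of 1.33, or 2.51-fold, the 36th highest, with the middle 95% of 2159 other genes of like signal between -0.45 and 0.77. Its measured neighbour Crtap, a collagen-modifying protein gene, differed by -0.05. Ccr8, a receptor of regulatory T cells and other skin-homing cells that often accompanies Ccr4, was near background: at 6.18 on the WT array it was just above it, and at 5.84 on the knockout array it was below, at least 1.25-fold lower. Of the markers of regulatory and CD4 T cells, 6 had a row and 3 were above background on both arrays, Il2ra (1.19), Ikzf2 (0.28) and Tnfrsf4 (-0.34). Cd40lg and Tnfrsf9 were below background on both. The 6 summed to signals of 2826 for WT and 4287 for the knockout. Of these sums Il2ra alone gave 960.8 and 2190.9. Foxp3, the defining gene of regulatory T cells, was not analysed here, and the part of such cells in the Ccr4 difference was not tested.

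**Figure D2:**
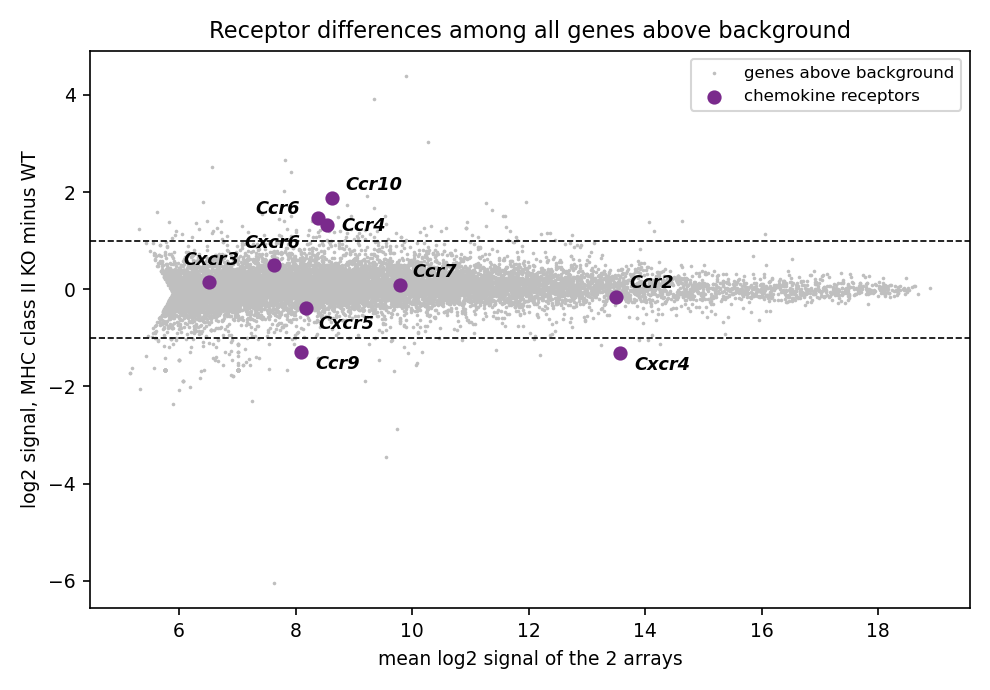
Difference in log2 signal, MHC class II KO minus WT, against the mean log2 signal of the 2 arrays for the 14494 genes above background (grey) and the 10 receptors (purple, named); dashed lines mark 2-fold. Ccr10, Ccr6 and Ccr4 stand above the upper line at 1.87, 1.46 and 1.33, Cxcr4 and Ccr9 below the lower at -1.31 and -1.29.

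Cxcr4 encodes the receptor for CXCL12, which holds early thymocytes in the cortex and supports their growth at β-selection. The row, TC0100003029.mm.1, gave 19184 for WT and 7741 for the knockout, log2 values of 14.23 and 12.92. Cxcr4 was therefore 2.48-fold lower on the knockout array, a difference of -1.31 and the 112th lowest of all genes above background. At this brightness other genes differed less, with the middle 95% of 437 of them between -0.48 and 0.48. Its measured neighbour Mcm6, a replication helicase gene, differed by 0.32.

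Ccr9 encodes the receptor for CCL25, the chemokine of thymic epithelium and small intestine, and is high in double positive thymocytes. Its row, TC0900001670.mm.1, gave 426.6 for WT and 174.2 for the knockout, log2 values of 8.74 and 7.44. Ccr9 was 2.45-fold lower on the knockout array, a difference of -1.29 and the 115th lowest. The middle 95% of 2368 other genes of like signal lay between -0.54 and 0.76.

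Ccr9 did not go with the other genes of double positive and αβ thymocytes. Without Ccr9, that list had 12 genes with a row, 11 of them above background on at least 1 array and 9 on both. Past 1.5-fold, 7 of these 9 were higher on the knockout array and 0 lower. The shares among all genes above background on at least 1 array, a wider filter, were 4.0% and 3.17%. The signals of the 12 summed to 16064 on the WT array and 36759 on the knockout array. Cd8b1, a CD8 chain gene, alone gave 10633.9 and 27602.5 of these sums. It differed by 1.38, Aqp11 by 1.23 and Cd4 by 0.57, and the median difference of the 9 was 0.74. Dntt, the gene of the enzyme that adds nucleotides to receptor junctions, was above background only on the knockout array, and the recombinase gene Rag2 on neither. The part of these thymocyte genes in the higher signals of Ccr10, Ccr6 and Ccr4 was not tested.

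Ccr7 encodes the receptor for CCL19 and CCL21, which leads mature thymocytes into the medulla. Its row gave 859.4 for WT and 907.6 for the knockout, log2 values of 9.75 and 9.83, and its difference of 0.08 turned to -0.01 after a loess correction. S1pr1 and Klf2, an exit receptor and the transcription factor that drives it, differed by 0.15 and 0.07. None of these 3 genes of late maturation and thymic exit was 1.5-fold apart.

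Cxcr5, the receptor for CXCL13, marks B cells and follicular helper T cells. It gave 330.3 for WT and 253.8 for the knockout, log2 values of 8.37 and 7.99, a difference of -0.38. The model of its neighbour Bcl9l overlaps that of Cxcr5 in RefSeq. Bcl9l went from 7.64 to 7.90, a difference of 0.26. How far the probes of either row read the other transcript was not tested here either. The defining B cell genes Cd79a, Ms4a1, Ebf1 and Pax5 were below background on both arrays. Ighm, the μ heavy chain gene, was above it and differed by 1.41. Without Cxcr5, 2 of the 8 B cell markers with a row were above background, Ighm and Cd79b (0.11). The 8 summed to signals of 16819 for WT and 42559 for the knockout, of which Ighm alone gave 15562.2 and 41226.9. The part of B cells in the Cxcr5 difference was not tested.

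Ccr2, the receptor for CCL2 that takes γδ T cells and monocytes to inflamed tissue, gave 12288 for WT and 11026 for the knockout. Its log2 values were 13.59 and 13.43 and its difference -0.16, inside the middle 95% of other genes of like signal (-0.45 to 0.50). Of the macrophage and dendritic cell markers, 12 had a row and 4 were above background on at least 1 array. Cd68, a lysosomal protein gene of phagocytes, differed by 0.91, Cx3cr1 by 0.11 and Siglech, a gene of plasmacytoid dendritic cells, by 0.03, while Lyz2 was above background on the knockout array alone. Csf1r, Adgre1 and Itgax were below it on both. The 12 summed to signals of 738 for WT and 991 for the knockout, of which Cd68 alone gave 259.0 and 485.7. The part of macrophages and dendritic cells in the Ccr2 signal was not tested.

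Cxcr6, the receptor for CXCL16 on tissue-resident and innate-like T cells, gave 166.2 for WT and 235.5 for the knockout. The log2 values were 7.38 and 7.88, a difference of 0.50 or 1.42-fold, inside the middle 95% of genes of like signal (-0.62 to 0.72). Cxcr3, the receptor for the interferon-induced CXCL9, CXCL10 and CXCL11, was close to background, with signals of 86.4 and 96.3. Its log2 values were 6.43 and 6.59, a difference of 0.16. T-bet, encoded by Tbx21, is the factor known to switch Cxcr3 on. Tbx21 went from 6.14, near background, to 7.31, a difference of 1.17.

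Of the 10, Ccr9, Cxcr6 and Ccr2 lie in the cluster of receptor genes on chromosome 9. In the order Ccr9, Cxcr6, Xcr1, Ccr1, Ccr1l1, Ccr3 and Ccr2, only the first, second and last were above background on both arrays, and the 4 between Cxcr6 and Ccr2 on neither. The 3 receptors above background had differences of -1.29, 0.50 and -0.16, so Ccr9 and Cxcr6, next to each other among the measured genes, went opposite ways on these arrays. Lztfl1, the measured gene before Ccr9, differed by -0.22.

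**Figure D3:**
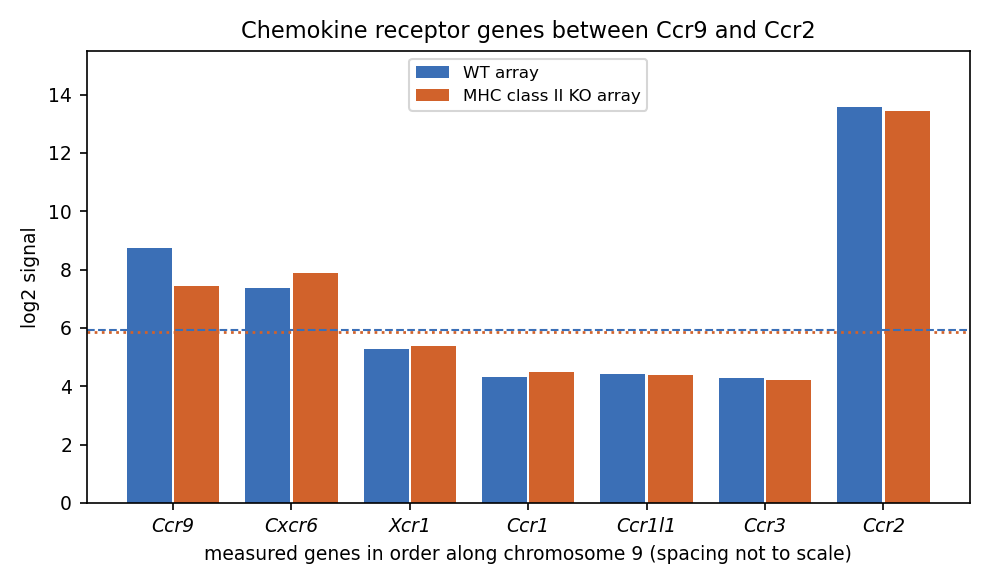
Log2 signal on the WT array (left bar of each pair) and the MHC class II KO array (right bar), 1 array per group. The genes are the measured receptor genes of the cluster from Ccr9 to Ccr2, in their order along chromosome 9. The dashed and dotted lines are the backgrounds of the WT and MHC class II KO arrays. Ccr9 is the only gene of the row that differs by at least 2-fold, from 8.74 to 7.44, and Xcr1, Ccr1, Ccr1l1 and Ccr3 are below background.

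Receptors outside the 10 were mostly not above background. Of 15 further chemokine and atypical chemokine receptors, 12 had a row, and Cx3cr1, the receptor for CX3CL1, was the only one above background on both arrays, with a difference of 0.11. Ccr8 was above it on the WT array alone, and the other 10, Ccr1, Ccr3, Cxcr1, Cxcr2 and Ackr1 among them, on neither. Of the chemokine receptors with a row in either list, the 11 above background on both arrays were the 10 and Cx3cr1. Over the whole array this held for 13710 of the 30142 genes with a row of their own.

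Most ligands of the 10 receptors were not above background in these sorted cells. Of 17 ligand genes, 16 had a row and 3 were above background on both arrays, against 13710 of the 30142 genes with a row of their own. Ccl17, a ligand of CCR4, went from a log2 signal of 7.53 to 7.09, a difference of -0.43. Ccl25, the ligand of CCR9, differed by -0.10 and Ccl27a, a ligand of CCR10, by 0.15. Cxcl16 was above background on the knockout array alone, and Cxcl12, Ccl20 and Ccl19 on neither. Of the 12 thymic epithelial markers, which include Ccl25, 5 were above background on at least 1 array. Besides Ccl25 these were Cldn4 (0.05) on both arrays, Epcam and Krt8 on the WT array alone and Ly75 on the knockout array alone. Foxn1, Psmb11 and Prss16 were on neither, and the 12 summed to signals of 694 for WT and 611 for the knockout. These sums include genes below background, and Ccl25 alone gave 179.7 and 167.6 of them. Bpifa1, an epithelial gene outside the list, had log2 signals of 10.66 for WT and 4.62 for the knockout. The part of thymic epithelial cells in the Ccl25 signal was not tested.

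Downstream of the receptors, 30 of 33 genes for signalling and desensitisation had a row and 28 were above background on both arrays. Past 1.5-fold, 0 of the 28 were higher on the knockout array and 2 lower. Among all genes above background on at least 1 array the shares were 4.0% and 3.17%. The 2 lower genes were Rgs2, from 14.81 to 13.68, and Rgs1, from 14.51 to 13.87, differences of -1.13 and -0.64. Both encode proteins that shut off G protein signals, and RGS1 is known to blunt the response of lymphocytes to CXCL12. Among other RGS genes, Rgs10 differed by 0.53, Rgs14 by 0.46 and Rgs18 by -0.35.

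Other genes of the list lay within 1.5-fold. Gnai2, the inhibitory G protein subunit that most chemokine receptors of lymphocytes use, differed by 0.32, the β-arrestin gene Arrb1 by 0.36 and Dock2, the exchange factor that turns on Rac for migration, by 0.24. Prex1 and Tiam1, further exchange factors of Rac, differed by 0.53 and -0.54. The median of the 28 was 0.11, and 19 had a difference above 0. Among all genes above background on at least 1 array the median was 0.04, and 56.4% had a difference above 0.

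Of 24 regulators of receptor expression and other homing genes, 20 had a row and 19 were above background on both arrays. Tbx21 was the only one at least 2-fold apart, against 1.95% of all genes above background on at least 1 array. Past 1.5-fold there were 3 higher genes and 1 lower, against 4.0% and 3.17% of all genes by that wider filter. Besides Tbx21 the higher ones were Fut7, which makes selectin ligands, at 0.69, and the transcription factor gene Irf4 at 0.66. Ahr, a ligand-activated transcription factor of barrier T cells, was the lower one at -0.92. Rora, a ROR family gene, differed by -0.37 and Zbtb16, which encodes the innate-like factor PLZF, by 0.47. The gut-homing integrin gene Itgb7 differed by 0.46, and Ccr9, which also guides T cells to the gut, by -1.29.

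**Figure D4:**
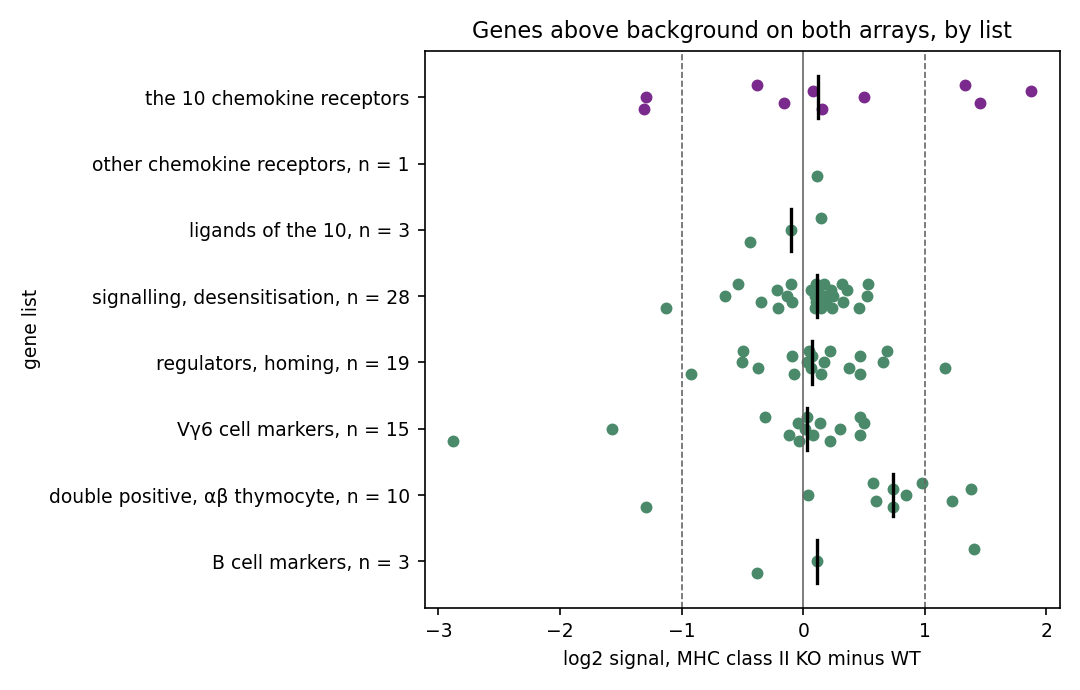
Difference in log2 signal, MHC class II KO minus WT, for genes above background on both arrays (1 point per gene, 1 array per group), by gene list, with the median as a black bar where a list has over 2 genes; dashed lines mark 2-fold. The 10 receptors run from -1.31 to 1.87, while the signalling genes run from -1.13 to 0.53; Ccr9 is also in the thymocyte list and Cxcr5 in the B cell list.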

How the data were processed

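Per the labels, RNA of the sorted cells was amplified, biotin-labelled and hybridised to 2 GeneChip arrays, 1 per genotype. The authors deposited 1 intensity per transcript cluster on a linear scale, 65956 rows per array. RMA and Affymetrix Expression Console 1.4.1 are named per the submitters' processing notes; the sources used here do not give their settings or the genome build. Above the limit of a 16-bit scanner lay 767 rows for WT and 742 for MHC class II KO, so the values are not plain scanner readings; how they came to this scale is not described and could affect the size of every fold.

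The log2 of each intensity was taken with Python 3.11.15. Rows were named through the platform's annotation, updated by gene identifier through RefSeq, and of several rows of a gene the brightest was used. A gene entered when at least 1 array passed the 95th percentile of olfactory receptor rows, and genes were counted at 2-fold. With 1 array per group no test, SE or p-value was possible, and the number of arrays limits the precision. For Ccr8, above background on 1 array alone, the fold is given as a bound, the brighter signal over the other array's background. Other genes above background on 1 array alone are named without a fold. For 170 genes with 2 different rows, the gap between the differences of the rows had an SD of 0.28.

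The members and lists were chosen with earlier results of these data known. The rule for named genes took all 10 receptors, every further receptor or ligand above background, genes of other lists at least 2-fold apart or up to 4 with the largest difference, the 3 genes nearest in signal to each receptor at least 2-fold apart, and markers. Further genes were named after their values were seen. Among them were H2-Ab1, Bpifa1, the neighbours on the chromosome, S1pr1, Klf2, Rgs18, Dock2, Gnai2, Arrb1, Rora, Zbtb16 and Itgb7. The counting code was run on simulated differences, which checks the code and says nothing about these arrays. Alternatives were 3 other scalings, 2 other background percentiles, raising low values to background, averaging rows, including rows with several symbols, and thresholds of 1.5-fold and 3-fold.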

Additional observations from a re-analysis of the deposited data

How the results depend on the processing

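Under the 8 alternatives to scaling, background and row choice, the counts of receptors past 2-fold were 3 higher and 2 lower for the knockout each time. Only the 3 other scalings could move these differences. Each of these receptors had 1 row, shared with no other gene, and was well above background. The remaining alternatives therefore left their differences unchanged and are no further check on them. The largest move of a difference among the 10 was 0.0845, for Ccr7, and it alone changed sign, after the loess correction. Cxcr3 was not above background at the 99th percentile of olfactory receptor rows. At a 1.5-fold threshold the receptor counts were the same, while 580 genes of all were higher and 459 lower (1039 together). At 3-fold, 1 receptor, Ccr10, was higher and 0 were lower, and 15 genes of all were higher and 82 lower (97 together). No paired analysis was possible because each group has 1 array. Single arrays limit all values, and the WT signals of Cxcr3 and Cntnap1 were close to background.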

Other observations

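For each receptor at least 2-fold apart, the 3 genes with the nearest pair of log2 signals on the 2 arrays were taken as those most like it; with 2 arrays this likeness says little. For Ccr4 they were Cndp2, a dipeptidase gene (7.86 and 9.17), the spindle gene Aspm and the phosphatase gene Ptprv, and for Ccr6 the microRNA gene Mir1b, Ptprv and the spindle checkpoint kinase gene Ttk. For Ccr10 they were Ppp1r14c, the receptor segment Traj47 and Ccr4. For Ccr9 they were the receptor segment Traj2 and the predicted genes Gm7437 and Gm11342. For Cxcr4 they were the ubiquitin ligase gene Rnf125 (13.83 and 12.68), the microRNA gene Mir1931 and the transcription factor gene Klf6 (14.00 and 13.43), at distances from 0.47 to 0.56.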
